A study of Mus musculus with 8 samples.

Results

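Sensory neurons of the dorsal root ganglion store neuropeptides in dense core vesicles and release them in the skin and the spinal cord. A set of 10 such genes was followed through a mouse study of inflammatory pain and the histone methyltransferase G9a. They were Calca and Calcb (the CGRP genes), Tac1 (substance P), Adcyap1 (PACAP), Nppb (natriuretic polypeptide b), Nmb (neuromedin B), Sst (somatostatin), and the injury-induced Gal (galanin), Npy (neuropeptide Y) and Vip. They were chosen by symbol, as peptides made by intact sensory neurons and peptides that such neurons switch on after nerve injury. Of the 10 symbols listed, 9 had a row among the 25780 gene symbols of the count files, and all 9 were among the 20235 genes that passed the filter on low counts. The expression of Vip was not analysed here.

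The mice labelled iKO carried Avil-iCreERT2/AJwo, a Cre that is inducible and expressed from Avil, a gene of sensory neurons, together with G9a flox/flox, the floxed alleles of Ehmt2, which encodes G9a. The WT mice were littermates without Cre, and the sources used here do not say whether they carried the floxed alleles too. Mice of both genotypes were given vehicle or complete Freund's adjuvant (CFA), which inflames the injected tissue, in the left paw, and ganglia were collected 14 days later, which gave 4 groups of 2 libraries. The inducer of Cre and its timing, the age and sex of the mice, the CFA dose, and the side and level of the ganglia are not given in the sources used here. RNA came from whole ganglia, so neurons, glia, vessel and immune cells all contributed, and Ehmt2 outside Avil-expressing cells was not a target of the deletion. In such RNA, fewer cells of a type and less RNA per cell cannot be told apart. No label says that the libraries came from separate animals, and the p-values therefore measure only the spread between these libraries.

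CGRP and substance P are released from the peripheral endings of peptidergic nociceptors, where they dilate vessels and recruit immune cells, and from their central endings in the dorsal horn, where they strengthen pain signalling. Nppb, Nmb and Sst mark smaller sets of neurons known for itch. Galanin, neuropeptide Y and VIP are scarce in sensory neurons of intact nerves and rise after axotomy, when leukaemia inhibitory factor and related cytokines reach the cell body and nerve growth factor is lost.

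The CGRP peptides of Calca and Calcb are nearly alike, which bears on how well reads can be assigned to either gene. The coding stretch between the paired basic residues and the amidation signal is shown for both, read from GENCODE M21 transcripts at chr7:114632470-114632580 (minus strand) and chr7:114721994-114722104 (plus strand) of GRCm38, a build older than the one the reads were aligned to. Capitals mark the bases that differ.
Calca: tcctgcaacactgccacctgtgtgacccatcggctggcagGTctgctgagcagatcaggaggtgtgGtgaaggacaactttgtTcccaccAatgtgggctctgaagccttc
Calcb: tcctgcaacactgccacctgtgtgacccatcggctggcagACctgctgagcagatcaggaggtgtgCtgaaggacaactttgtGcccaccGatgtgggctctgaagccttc
The stretches of 111 bases differ at 5 bases (95.5% identity) and their 37 residues at 3. Over the full transcripts, 12 windows of 50 bases were identical in both genes, which was 0.715% of the 1678 windows of Calca and 0.952% of the 1260 windows of Calcb. Reads of that length could thus be assigned to one gene alone over nearly all of both. Calca also encodes calcitonin through another last exon, and the counts do not separate the transcripts.

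Calca, Tac1, Nppb and Nmb, which rose with CFA in WT, are shown with the 100 bases before their annotated start, beside Sst and Gal. Of the other genes that rose, Adcyap1 is not shown and Calcb had no window. The first regulatory sequence searched for was the cyclic AMP response element (CRE), a known feature of peptide promoters. Sequences are from RefSeq, GRCm38.p6, read 5′ to 3′ on the strand of the gene, and capitals mark the CRE core TGACG or its reverse complement CGTCA. The windows lie at chr7:114636358-114636457 (Calca, minus), chr6:7554961-7555060 (Tac1, plus), chr4:147985800-147985899 (Nppb, plus), chr7:80905063-80905162 (Nmb, minus), chr16:23890845-23890944 (Sst, minus) and chr19:3414545-3414644 (Gal, minus).
Calca: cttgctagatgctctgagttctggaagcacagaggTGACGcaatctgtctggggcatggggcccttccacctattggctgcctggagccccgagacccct
Tac1: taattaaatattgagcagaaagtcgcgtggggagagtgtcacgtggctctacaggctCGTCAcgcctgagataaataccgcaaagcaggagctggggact
Nppb: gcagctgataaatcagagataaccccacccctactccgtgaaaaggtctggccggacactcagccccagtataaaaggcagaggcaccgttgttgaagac
Nmb: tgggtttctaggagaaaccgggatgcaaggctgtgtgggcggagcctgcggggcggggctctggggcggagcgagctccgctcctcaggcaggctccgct
Sst: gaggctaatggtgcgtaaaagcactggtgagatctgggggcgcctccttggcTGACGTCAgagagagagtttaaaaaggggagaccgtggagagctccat
Gal: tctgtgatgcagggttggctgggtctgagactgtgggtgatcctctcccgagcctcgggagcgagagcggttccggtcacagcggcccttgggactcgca
Of the 10 genes, 9 had a RefSeq window from 250 bases before to 50 after the start. Calcb was not matched. The CRE core, on either strand, was present in 6 of the 9 (Calca, Tac1, Adcyap1, Sst, Gal and Vip), against 20.8% of all 32851 windows, and in Gal it lay 19 bases past the start. Adcyap1 had more than a single window, and a gene was counted if any of its windows matched, whereas the shares are per window. Nppb and Nmb, which rose with Calca, held no core in this window. The full element TGACGTCA was present in Sst alone, against 1.79% of all windows. The AP-1 motif (TGAGTCA or TGACTCA), the STAT motif TTCNNNGAA and the REST motif were each found in 0 of the 9 windows, against 5.20%, 8.30% and 0.244% of all windows. These matches overlap in the case of the full element, which contains the core on both strands, and they describe letters in a short window only.

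Libraries held 26312614 to 42971823 counted reads. Ehmt2, the deleted gene, stood at 74.4 and 65.4 CPM (reads per gene scaled for library size) in WT vehicle and 74.2 and 61.3 in WT CFA. It read 34.0 and 31.6 in iKO vehicle and, with CFA, 45.0 and 44.2, so every library fitted its genotype label. Pan-neuronal markers (19 genes) summed to 13128 to 26406 CPM. Both WT vehicle libraries differed from the remaining 6. Their immediate early genes summed to 1677 and 1433 CPM against 555 to 653, and their lymphocyte markers to 2178 and 918 against 6.09 to 60.5. The nuclear long noncoding RNA Malat1 read 1323 and 1187 CPM there against 27.4 to 57.0, and Meg3, another such RNA, 877 and 1098 against 3.59 to 16.8. The muscle myosin gene Myh1 read 61.8 CPM in WT vehicle 1 and 0.328 in WT vehicle 2. WT CFA 1 and 2 differed more than any other pair of replicates (median absolute log2 difference 0.59, against 0.17 to 0.28 in the other groups). WT CFA 1 had 26397 CPM of pan-neuronal and 8031 of myelinating Schwann cell markers, close to iKO vehicle, and WT CFA 2 had 19141 and 19517, close to iKO CFA. The part of these differences in the peptide values was not tested.

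Per kilobase of exon, Calca had the highest mean level of the 9 genes in every group, at 474 ± 146 CPM per kb in WT vehicle, 1758 ± 899 in WT CFA, 808 ± 14.9 in iKO vehicle and 1807 ± 157 in iKO CFA (mean ± SD, n = 2). Calcb and Nmb followed, with means of 101 to 221 and 98.3 to 246 CPM per kb across the groups. Their order was not separated beyond the spread in WT vehicle or in WT CFA. In WT vehicle Gal, at 98.3 ± 36.3 CPM per kb, lay level with both. Tac1 came next at 47.7 to 98.1 CPM per kb, then Adcyap1 at 22.0 to 37.6 and Nppb at 12.0 to 59.9. By mean, Adcyap1 was above Nppb in both vehicle groups and below it in both CFA groups, with overlapping libraries in WT CFA. Gal was the fourth most abundant per length in WT vehicle and the seventh in the other 3 groups. Npy, at 1.13 to 13.6 CPM per kb, was the scarcest in 3 groups, followed by Sst, at 4.38 to 15.5. In WT vehicle Sst was the scarcest, with Nppb and Npy above it and within the spread of each other. Npy rested on few reads, with 317 and 160 in WT vehicle, 8 and 31 in WT CFA, 44 and 18 in iKO vehicle, then 42 and 98 in iKO CFA.

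**Figure D1:**
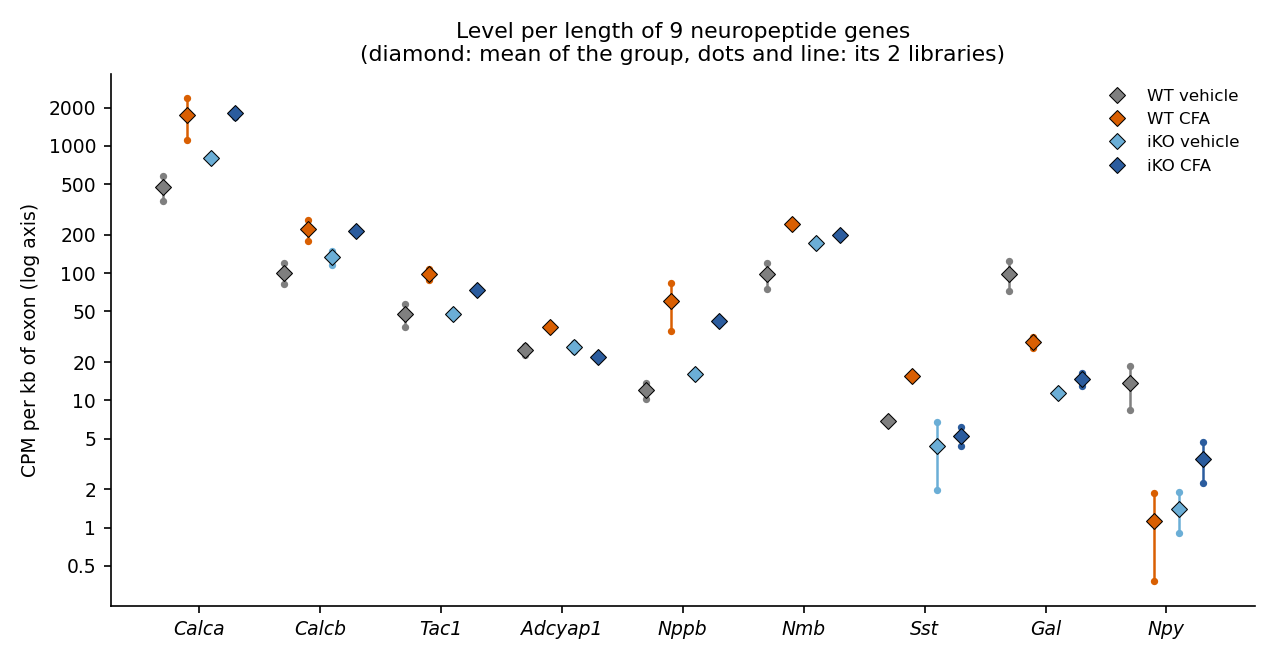
Level per length of the 9 measured neuropeptide genes, as CPM per kilobase of exon on a log axis, with the mean of each group as a diamond and its 2 libraries as dots joined by a line. Calca is highest in every group, from 474 CPM per kb in WT vehicle to 1807 in iKO CFA, and Gal and Npy are highest in WT vehicle.

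The first comparison asked how peptide genes stood 14 days after CFA in mice with intact G9a. In WT ganglia 6 peptide genes of intact neurons were higher after CFA (Calca, Calcb, Tac1, Adcyap1, Nppb and Nmb), and the injury peptides Gal and Npy were lower. Nppb rose 4.99-fold, Calca 3.71-fold, Nmb 2.50-fold, Calcb 2.18-fold, Tac1 2.06-fold and Adcyap1 1.51-fold, while Gal was 3.43-fold and Npy 12.3-fold lower. By the same call rule (edgeR quasi-likelihood test, adjusted p under 0.05) 16.8% of all genes tested were called, 8.12% higher and 8.71% lower, against 8 of these 9. The median log2 fold change was 1.13 over the 9 genes and -0.03 over all genes. For all 9 genes the WT CFA and WT vehicle libraries did not overlap, which was so for 56.1% of all genes.

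Calca, which encodes CGRP-alpha, read 624 and 972 CPM in WT vehicle libraries 1 and 2, 1890 and 4032 in WT CFA, 1378 and 1343 in iKO vehicle, then 2855 and 3229 in iKO CFA. Both CFA groups lay above their vehicle groups, WT vehicle was lowest, and the WT CFA libraries were 2.13 times apart. Its log2 fold change with CFA in WT was 1.89 ± 0.37 (SE, adjusted p = 0.0133). Without WT CFA 2 the log2 fold change was 1.24 (adjusted p = 0.00256), and without WT CFA 1 it was 2.33 (5.62e-05).

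Calcb, the gene of CGRP-beta, read 104 and 152 CPM in WT vehicle, 226 and 332 in WT CFA, 190 and 147 in iKO vehicle, then 265 and 276 in iKO CFA. It followed Calca with smaller steps, and the vehicle groups of both genotypes overlapped. With CFA it rose in WT by 1.13 ± 0.27 on the log2 scale (adjusted p = 0.0253). Tac1, which encodes substance P and neurokinin A, read 128 and 196 CPM in WT vehicle, 301 and 366 in WT CFA, 165 and 161 in iKO vehicle, then 244 and 255 in iKO CFA. The vehicle groups again overlapped, and WT CFA was the highest group. The WT log2 fold change was 1.04 ± 0.23 (adjusted p = 0.0212).

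Nppb, the transmitter of a small class of itch neurons, read 8.08 and 10.7 CPM in WT vehicle, 27.6 and 66.0 in WT CFA, 13.2 and 11.9 in iKO vehicle, then 33.8 and 31.7 in iKO CFA. The CFA libraries of both genotypes lay above every vehicle library, and the 2 WT CFA libraries lay on either side of the iKO CFA pair. Its log2 fold change in WT was 2.32 ± 0.37 (adjusted p = 0.00719), with 1.56 (0.000448) when WT CFA 2 was left out and 2.80 (1.05e-05) when WT CFA 1 was. Nmb, another itch peptide, read 59.9 and 96.0 CPM in WT vehicle, 192 and 198 in WT CFA, 140 and 133 in iKO vehicle, then 155 and 159 in iKO CFA. Its WT vehicle libraries were below the other 6, and its WT CFA libraries above them. In WT its log2 fold change was 1.32 ± 0.23 (adjusted p = 0.00991).

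Adcyap1, which encodes PACAP, read 86.1 and 102 CPM in WT vehicle, 147 and 137 in WT CFA, 106 and 92.7 in iKO vehicle, then 83.4 and 83.1 in iKO CFA. It was high in WT CFA only, and the iKO CFA libraries were the lowest of the 8. Its log2 fold change in WT was 0.60 ± 0.18, just past the threshold (adjusted p = 0.0495). Sst, the inhibitory peptide that shares neurons with Nppb, read 4.83 and 5.09 CPM in WT vehicle, 10.8 and 11.5 in WT CFA, 4.88 and 1.44 in iKO vehicle, then 4.49 and 3.15 in iKO CFA. Again only the WT CFA pair stood high, but the log2 fold change in WT, 1.17 ± 0.48, did not pass (adjusted p = 0.127).

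Gal, which encodes galanin, read 97.6 and 57.2 CPM in WT vehicle, 20.5 and 24.7 in WT CFA, 9.34 and 8.84 in iKO vehicle, then 10.2 and 13.0 in iKO CFA. WT vehicle was far above the other groups, WT CFA came next, and all 4 iKO libraries were below every WT library. The log2 fold change with CFA in WT was -1.78 ± 0.27 (adjusted p = 0.00631). Npy read 10.6 and 4.77 CPM in WT vehicle, 0.214 and 1.06 in WT CFA, 1.08 and 0.517 in iKO vehicle, then 1.27 and 2.69 in iKO CFA. It too was highest in both WT vehicle libraries, and the other groups lay lower, at 0.214 to 2.69 CPM. The WT CFA libraries were 4.97 times apart, and both lay below the iKO CFA libraries. Its log2 fold change in WT was -3.62 ± 0.79 (adjusted p = 0.0198), and leaving out single WT libraries moved it between -2.86 and -5.14.

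**Figure D2:**
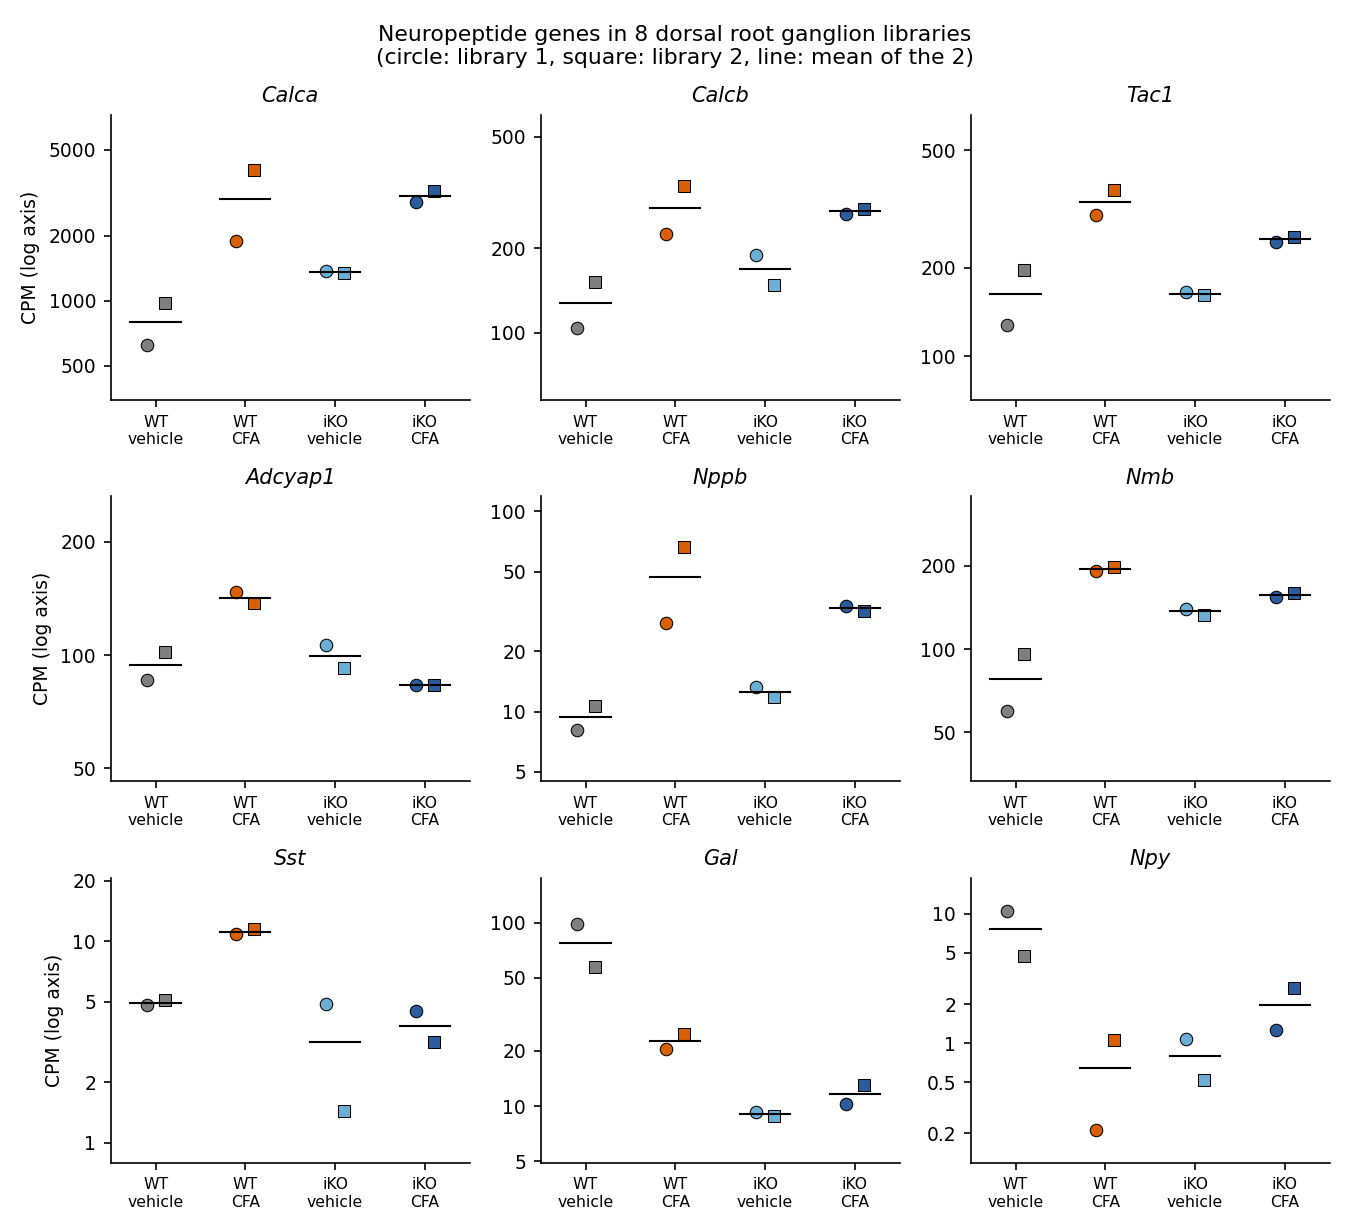
CPM of the 9 measured neuropeptide genes on log axes in the 4 groups, with library 1 as a circle, library 2 as a square and the group mean as a line. Calca, Calcb, Tac1 and Nppb are higher after CFA in both genotypes, Adcyap1 and Sst are high in WT CFA, and Gal (97.6 and 57.2 CPM) and Npy (10.6 and 4.77 CPM) are high in WT vehicle.

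The WT calls changed with the libraries in the fit. Without WT vehicle 1, none of the 9 genes passed in edgeR (adjusted p between 0.0617 and 0.408), although each kept its direction, 7 had an unadjusted p under 0.05 and 259 genes in all were still called. Adcyap1 was also lost without WT vehicle 2 (log2 fold change 0.72). Over the 16 alternatives the call was lost in 11 for Adcyap1, 8 for Tac1 and 7 for Calcb. For these 3 genes the losses included fits without single iKO libraries. For Calca, Nppb, Nmb, Gal and Npy the call was lost in 1 or 2 alternatives. A fit of the 4 WT libraries alone called 2 of the 9, Nppb and Gal, among 754 genes in all.

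The second comparison was the same contrast in iKO mice. Calca was 2.24-fold, Nppb 2.61-fold, Calcb 1.61-fold and Tac1 1.53-fold above vehicle, but 0 of the 9 genes passed the adjusted threshold in edgeR, where 0.0395% of all genes did. The log2 fold changes were 1.16 ± 0.36 for Calca (adjusted p = 0.105), 1.38 ± 0.36 for Nppb (0.0978), 0.68 ± 0.26 for Calcb (0.140) and 0.62 ± 0.23 for Tac1 (0.133). These 4 genes had an unadjusted p under 0.05, as did 28.6% of all genes. For 8 of the 9 genes the iKO CFA and iKO vehicle libraries did not overlap, against 69.5% of all genes, so separation by itself was common.

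The iKO calls changed with the tool and with the libraries in the fit. DESeq2 called Calca, Tac1 and Nppb higher, among 3364 genes called in all. A fit of the 4 iKO libraries alone called Calca (2.28-fold, adjusted p = 5.80e-06), Calcb (log2 fold change 0.71, 0.000533), Tac1 (0.64, 6.27e-05), Nppb (1.41, 2.88e-05) and Nmb (0.23, 0.0240) higher, among 8309 genes called in all. Leaving out either WT CFA library brought 4 of the 9 past the threshold, namely Calca, Calcb, Tac1 and Nppb, but 6948 and 6951 genes were then called in all, so calls were common.

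The remaining genes did not pass in iKO either. Nmb differed by a log2 fold change of 0.20 ± 0.23 (adjusted p = 0.590), Sst by 0.27 ± 0.49 (0.747) and Gal by 0.36 ± 0.27 (0.407). Adcyap1 was at -0.26 ± 0.18 (adjusted p = 0.354) and Npy at 1.30 ± 0.74 (0.275). For Adcyap1, Gal and Npy the estimated direction was opposite to that in WT.

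**Figure D3:**
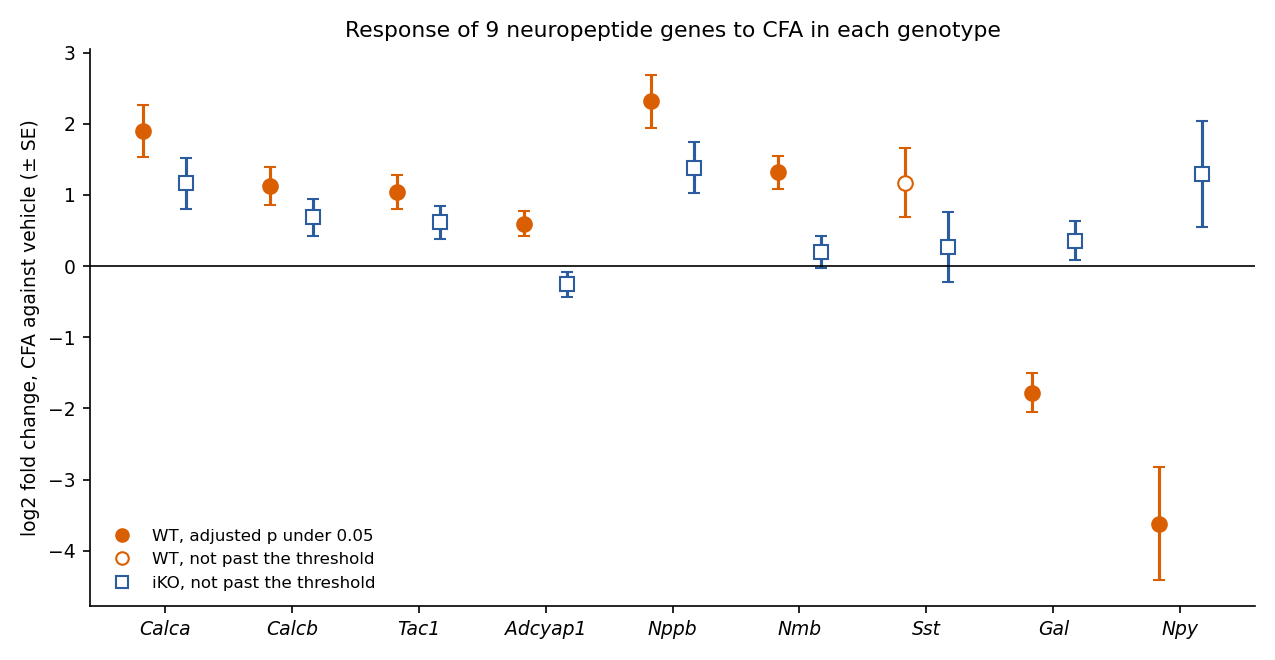
Log2 fold change of each neuropeptide gene with CFA against vehicle, with its standard error, in WT (circles) and in iKO (squares), filled where the adjusted p was under 0.05. In WT 6 genes lie above 0 and Gal (-1.78) and Npy (-3.62) below it past the threshold, and in iKO none passed, with Nppb (1.38) and Calca (1.16) among the highest.

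The test of the difference between the CFA responses, the interaction, was past the threshold for Gal and Npy, 2 of the 9 genes, where 9.36% of all genes were called, 6.19% positive and 3.17% negative. The interaction was 2.14 ± 0.38 for Gal on the log2 scale (adjusted p = 0.0149) and 4.92 ± 1.08 for Npy (0.0303), positive because both fell with CFA in WT and did not in iKO. Nmb (-1.12 ± 0.32, adjusted p = 0.0627) and Adcyap1 (-0.86 ± 0.25, 0.0634) did not pass, though DESeq2 called both, among 3901 genes in all, and both passed without either WT CFA library. Sst was at -0.90 ± 0.68 (0.394). For the CGRP, substance P and Nppb genes the interaction was -0.73 ± 0.50 for Calca (adjusted p = 0.346), -0.44 ± 0.37 for Calcb (0.444), -0.42 ± 0.33 for Tac1 (0.400) and -0.93 ± 0.51 for Nppb (0.239). These values rested on single WT CFA libraries. Without WT CFA 1 the interaction passed for Calca (-1.18, adjusted p = 0.0187) and Nppb (-1.43, 0.00346), with 4615 genes called in all, and not for Calcb (-0.70, 0.102) or Tac1 (-0.56, 0.163). Without WT CFA 2 it was -0.09 for Calca (0.844), -0.18 for Nppb (0.622), -0.15 for Calcb (0.722) and -0.29 for Tac1 (0.441), with 8303 genes called. The Gal interaction was lost without WT vehicle 1, either iKO vehicle library or iKO CFA 2, and the Npy interaction without WT vehicle 1 or any single iKO library.

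Under vehicle, the iKO libraries were compared with the WT libraries. The WT vehicle pair differed from all other groups in Malat1, Meg3, immediate early and lymphocyte genes. Genotype and that difference cannot be told apart in this comparison. Gal was 8.51-fold lower in iKO than in WT (log2 fold change -3.09 ± 0.29, adjusted p = 0.000816) and Npy 9.54-fold lower (-3.25 ± 0.77, 0.0244), while Nmb was 1.75-fold higher (0.81 ± 0.23, 0.0432). These were 3 of the 9 genes, against 17.6% of all genes tested, of which 8.28% were higher and 9.33% lower. Both comparisons in which Gal and Npy passed share the WT vehicle libraries, as does the interaction. Gal kept its call in all 16 alternatives run, with log2 fold changes between -3.85 and -2.67. The Npy call was lost without WT vehicle 1 or either iKO vehicle library, and the Nmb call under 8 of 16 alternatives.

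The other genes did not differ between genotypes under vehicle past the threshold. Calca was at a log2 fold change of 0.77 ± 0.36 (adjusted p = 0.161), with no overlap of libraries, and it passed when either WT CFA library was left out (8464 and 8443 genes called in all) or when only vehicle libraries were fitted (0.71, 0.0366, 8179 genes). Calcb was at 0.40 ± 0.26 (0.312) and Nppb at 0.42 ± 0.36 (0.442). Tac1 was at 0.01 ± 0.23 (0.990) and Adcyap1 at 0.08 ± 0.18 (0.769). Sst was at -0.65 ± 0.49 (0.380), and its iKO vehicle libraries were 3.40 times apart. For 5 of the 9 genes the groups did not overlap, against 75.4% of all genes.

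Under CFA, 0 of the 9 genes passed between genotypes in edgeR, against 1.70% of all genes, and 3 had an unadjusted p under 0.05 (14.7% of all genes). Those were Adcyap1, at a log2 fold change of -0.77 ± 0.18 (adjusted p = 0.0779), Sst at -1.55 ± 0.49 (0.184) and Gal at -0.95 ± 0.27 (0.144). All 3 were lower in both iKO CFA libraries than in both WT CFA libraries, and DESeq2 called all 3, among 1169 genes in all. The groups did not overlap for 6 of the 9 genes, against 38.3% of all genes. Calca was at 0.04 ± 0.35 (adjusted p = 0.979) and Calcb at -0.04 ± 0.26 (0.964), and for both the iKO CFA pair lay between the 2 WT CFA libraries. Calca was at -0.40 (0.376) without WT CFA 1 and 0.68 (0.0567) without WT CFA 2, and Calcb at -0.29 (0.503) and 0.26 (0.431). Nppb was at -0.51 ± 0.35 (0.538), at -1.01 without WT CFA 1, where it passed (0.0150), and at 0.24 without WT CFA 2 (0.414). The direction for these 3 genes thus turned with the WT CFA library kept. Tac1 was at -0.42 ± 0.23 (adjusted p = 0.439) and Nmb at -0.31 ± 0.23 (0.564). Npy was at 1.66 ± 0.77 (0.363), and it passed without WT CFA 2 (3.18, 0.0155), where 5819 genes were called.

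The summed level of neuronal markers differed between groups. Pan-neuronal markers summed to 13128 and 16632 CPM in WT vehicle, 26397 and 19141 in WT CFA, 26005 and 26406 in iKO vehicle, then 17828 and 17689 in iKO CFA. In WT, 5 of 19 pan-neuronal genes and 5 of 15 other markers of peptidergic nociceptors rose with CFA, against 8.12% of all genes, among them Trpv1, the capsaicin receptor (log2 fold change 1.21 ± 0.21, adjusted p = 0.0100). In iKO 0 of these 34 genes passed in edgeR (20 had an unadjusted p under 0.05, and DESeq2 called 15), and the median log2 fold change was -0.67 over the pan-neuronal and -0.37 over the peptidergic list, with -0.00115 over all genes. Their part in the peptide results was not tested, but each peptide gene was also set against the pan-neuronal sum.

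Per 1000 CPM of pan-neuronal markers, Calca stood at 47.5 and 58.5 CPM in WT vehicle, 71.6 and 211 in WT CFA, 53.0 and 50.9 in iKO vehicle, then 160 and 183 in iKO CFA. On this scale the vehicle groups of both genotypes overlapped, and WT CFA 1 lay much nearer to them than WT CFA 2 did. Calcb stood at 7.90 and 9.12 in WT vehicle, 8.55 and 17.4 in WT CFA, 7.30 and 5.58 in iKO vehicle, then 14.9 and 15.6 in iKO CFA. Its WT groups then overlapped, whereas the iKO CFA libraries were above both iKO vehicle libraries. Nppb read 0.615 and 0.641 in WT vehicle, 1.05 and 3.45 in WT CFA, 0.508 and 0.450 in iKO vehicle, then 1.90 and 1.79 in iKO CFA, so both CFA pairs stayed above both vehicle pairs. Gal read 7.44 and 3.44 in WT vehicle against 0.335 to 1.29 in the other 6 libraries, and WT vehicle stayed the high group.

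When library sizes were scaled on the pan-neuronal genes, a choice made after seeing the data, 5 of the 9 genes kept their call with CFA in WT. Calca was at a log2 fold change of 1.58 (adjusted p = 0.0402), Nppb at 2.01 (0.0284), Nmb at 0.93 (0.0343), Gal at -2.25 (0.0117) and Npy at -4.01 (0.0264). Adcyap1 dropped to 0.16 (0.639). In iKO the same scaling gave 1.85 for Calca, 2.07 for Nppb, 1.37 for Calcb, 1.30 for Tac1 and 0.89 for Nmb, each at an adjusted p of 0.0578. It turned the interaction from negative to positive for Calca (0.27), Calcb (0.60), Tac1 (0.64), Adcyap1 (0.27), Nppb (0.07) and Sst (0.22), none past the threshold. This scaling moves all genes alike, and the median interaction of all genes went from -0.04 to 1.09 with it, so the change of sign is not particular to the peptide genes. The median of all genes was likewise at -0.49 for CFA in WT and 0.69 for CFA in iKO.

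**Figure D4:**
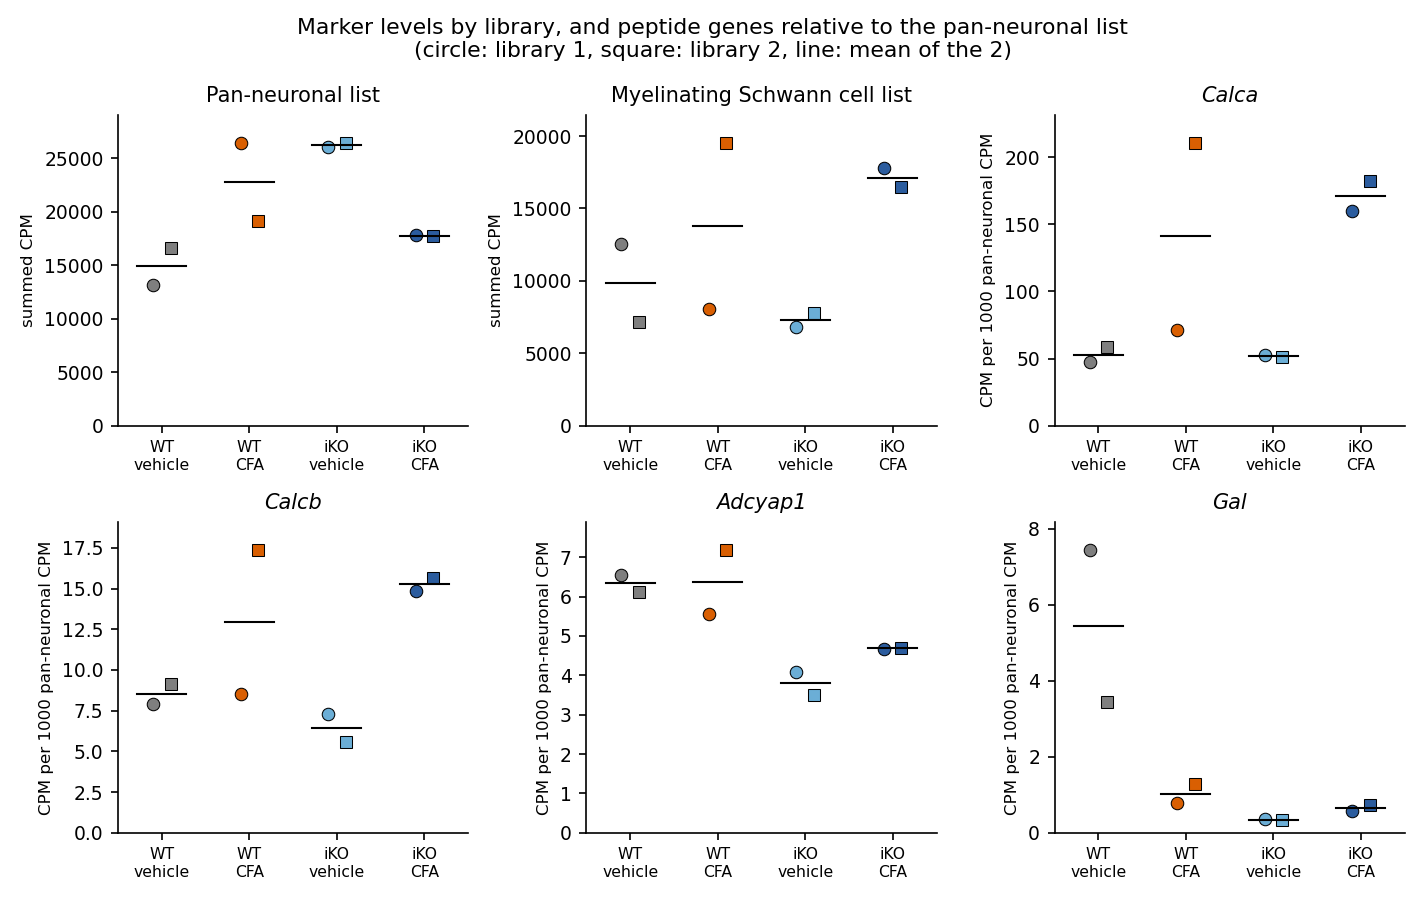
Summed CPM of the pan-neuronal and myelinating Schwann cell marker lists in each library, and CPM of Calca, Calcb, Adcyap1 and Gal per 1000 CPM of pan-neuronal markers, with library 1 as a circle, library 2 as a square and the group mean as a line; every axis starts at 0. Calca per neuronal RNA is 47.5 to 58.5 in both vehicle groups and 71.6 to 211 after CFA, and Gal is 7.44 and 3.44 in WT vehicle.

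Calca made up more of the peptide transcripts in the CFA libraries than in the vehicle libraries of the same genotype, a difference that was not tested. Calca reads per Calcb read, a ratio that does not depend on library scaling, were 6.02 and 6.41 in WT vehicle, 8.37 and 12.1 in WT CFA, 7.26 and 9.11 in iKO vehicle, then 10.8 and 11.7 in iKO CFA. The CFA libraries lay above the vehicle libraries of their own genotype, and WT CFA 1 fell inside the range of iKO vehicle. Calca took 55.6% and 60.9% of the reads of the 9 genes in WT vehicle, 67.2% and 78.0% in WT CFA, 68.6% and 70.7% in iKO vehicle, then 78.2% and 79.7% in iKO CFA. By read count it ranked 128 and 73 among all genes in WT vehicle, 42 and 13 in WT CFA, 60 and 61 in iKO vehicle, then 14 in both iKO CFA libraries. The 9 genes together held 0.127% of all reads in WT vehicle 1 and 0.469% in WT CFA 2, the lowest and the highest library.

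Across the 8 libraries, log2 CPM of Calca, Calcb, Tac1, Nppb and Nmb correlated with each other at Pearson r between 0.83 and 0.98 over 10 pairs. These 5 were grouped after their values were seen, and Adcyap1 correlated with them at 0.25 to 0.59 and Sst at 0.26 to 0.61. Gal correlated with the 5 at -0.71 to -0.24, and Npy at -0.81 to -0.44. The libraries share composition and group, so these values describe the 8 libraries only. The named genes most like Calca among 10418 compared were Eif5, Stmn3, Surf1, Snrnp25 and Mat2b (r = 0.994 to 0.995), those most like Nppb were Cgref1, Arpc3, Hyi, Mrpl27 and Mettl5 (0.987 to 0.994), and those most like Gal were Ivns1abp, Rbm39, Elf2, Aebp2 and Ankrd44 (0.978 to 0.989).

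Some genes of the injury, cytokine and activity lists were high in the WT vehicle libraries, as Gal and Npy were, and others were low there. The injury-induced transcription factor Atf3 read 117 and 86.8 CPM in WT vehicle and 15.2 to 32.8 in the other 6 libraries, and the growth-associated Sprr1a 53.3 and 27.9 against 0.287 to 10.4. Socs3, a target of cytokine signalling through STAT3, read 102 and 94.8 CPM in WT vehicle against 11.2 to 16.3, and Fos 99.1 and 91.9 against 3.01 to 5.87. Other members of these lists, named after their values were seen, were lowest in WT vehicle. The tubulin gene Tubb3 read 1653 to 1956 CPM there against 2707 to 3771, the neurotrophin gene Bdnf 30.2 to 35.1 against 49.6 to 82.8, the receptor gene Cntfr 21.8 to 32.8 against 52.1 to 77.3 and the AP-1 gene Jund 142 to 153 against 196 to 257. The nerve injury list summed to 3717 and 3807 CPM in WT vehicle, below the 4346 to 5859 of the other 6 libraries. Tubb3 alone made up a large part of this sum. Tubb3 and Gap43 are also among the pan-neuronal markers, which summed to 13128 and 16632 CPM in WT vehicle against 17689 to 26406. The inducer list summed to 2562 and 3019 CPM in WT vehicle against 2461 to 4442. Of 25 nerve injury genes 7 were lower and 3 higher with CFA in WT, and 13 lower and 2 higher in iKO under vehicle. For all genes 8.71% were lower and 8.12% higher in the first and 9.33% and 8.28% in the second of these comparisons. Of 19 genes for cytokines, their receptors and signalling that can induce Gal and Npy, 6 were lower and 2 higher with CFA in WT, led by Socs3 (log2 fold change -3.00 ± 0.19, adjusted p = 0.000200) and Osm, the gene of oncostatin M (-4.23 ± 0.62, 0.00547). Of 28 immediate early genes 19 were lower and 1 higher with CFA in WT, and 21 lower in iKO under vehicle. In iKO with CFA 0 of the 70 genes of these lists passed in edgeR, with 18 at an unadjusted p under 0.05 and 12 called by DESeq2. Of the nerve injury, inducer and immediate early lists, only the immediate early list was high by summed level in the WT vehicle pair. Sympathetic neurons, which make Npy, were covered by 9 tested markers of 16 listed, which summed to 63.1 and 91.1 CPM in WT vehicle and 62.7 to 158 in the other 6. Their defining marker Dbh was at 0 to 0.187 CPM in all 8 libraries, Th at 44.1 to 123, and Gata3 at 1.22 to 1.88 in WT vehicle against 0 to 0.181. Th alone thus made up a large part of the sum, which does not measure sympathetic neurons by itself. The 13 tested spinal cord markers of 20 listed summed to 303 and 332 CPM in WT vehicle against 423 to 534, with Slc6a5 at 0 to 0.201 in all libraries, Gad1 at 0.274 to 18.2, and Gfap at 27.3 to 31.2 in WT vehicle against 1.18 to 4.31. The part of these genes and of the lymphocyte RNA in the Gal and Npy values was not tested.

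**Figure D5:**
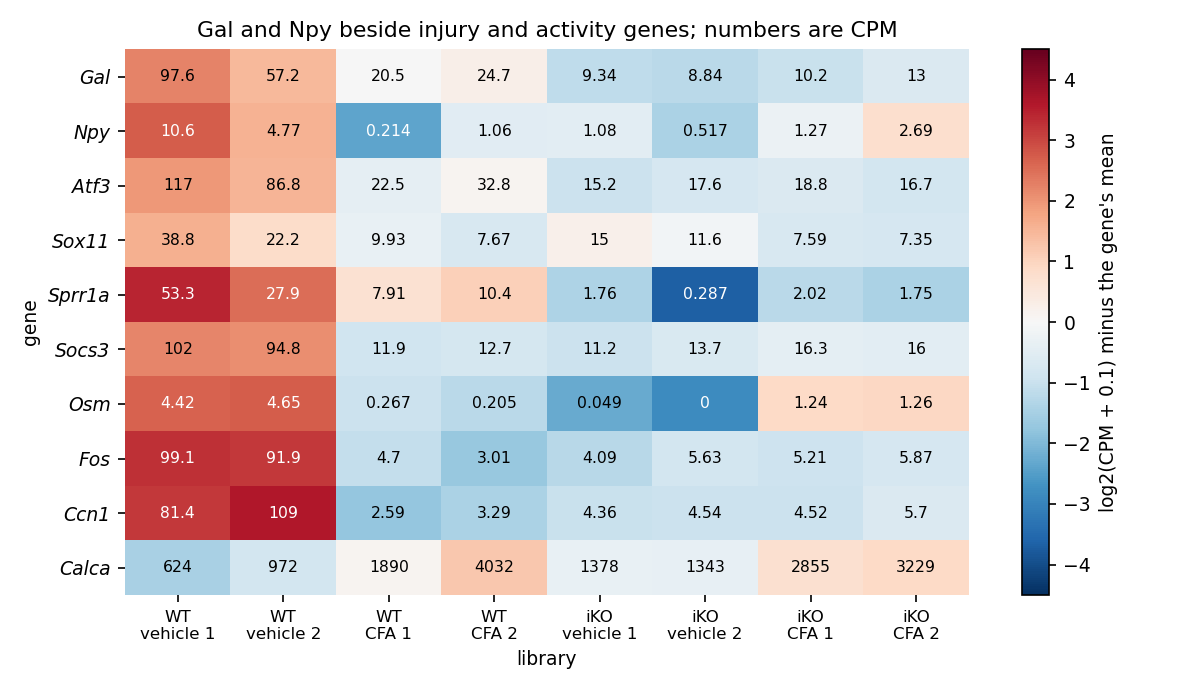
CPM (numbers) of Gal and Npy, of the injury genes Atf3, Sox11 and Sprr1a, of Socs3 and Osm, of the immediate early genes Fos and Ccn1, and of Calca in each library, with colour for the log2 distance from the gene's mean over the 8 libraries. The WT vehicle libraries are the highest for every gene shown but Calca, with Gal at 97.6 and 57.2 CPM and Atf3 at 117 and 86.8. The injury, cytokine and immediate early genes shown are a selection from their lists. Other genes of those lists, such as Tubb3, Bdnf, Cntfr and Jund, were lowest in WT vehicle.

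With CFA in WT, 3 of 26 receptor genes rose and 1 fell, beside 8.12% and 8.71% of all genes. Those that rose were the somatostatin receptors Sstr1 (log2 fold change 1.55 ± 0.32, adjusted p = 0.0156) and Sstr2 (1.37 ± 0.38, 0.0431) and the neuropeptide Y receptor Npy2r (1.07 ± 0.27, 0.0316). Ramp1, a subunit of the CGRP receptor, read 3.22 and 1.97 CPM in WT vehicle, 0.855 and 0.821 in WT CFA, 2.08 and 1.21 in iKO vehicle, then 5.03 and 6.19 in iKO CFA. It was lowest in the WT CFA libraries, where Calca was high, and highest in the iKO CFA libraries, where Calca was high too. Its log2 fold change was -1.62 ± 0.44 with CFA in WT (adjusted p = 0.0375) and 2.74 ± 0.44 for iKO against WT under CFA (0.0226), with an interaction of 3.39 ± 0.60 (0.0149). Calcrl, its partner in that receptor, was not among the genes called in any comparison. Under vehicle 3 of the 26 receptors were higher in iKO (Tacr3 for neurokinin B, Grpr for gastrin-releasing peptide, and Sstr1) and 0 lower. In that comparison 8.28% of all genes were higher and 9.33% lower.

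The counts for the remaining lists stand beside the same shares of all genes. Among 17 genes that process peptides, 3 rose with CFA in WT and 1 fell. Pcsk1n, which encodes the convertase inhibitor proSAAS, was at a log2 fold change of 1.55 ± 0.21 (adjusted p = 0.00418), Ctsl, the protease cathepsin L, at 1.40 ± 0.23 (0.00739) and the convertase gene Pcsk2 at 0.90 ± 0.22 (0.0264). Scg5, which encodes the Pcsk2 chaperone 7B2, was at -1.05 ± 0.17 (0.00810). Of 23 dense core vesicle genes only Scg2, secretogranin II, rose (0.89 ± 0.23, 0.0327), and in iKO under vehicle 5 were higher, led by Rab3a (1.32 ± 0.27, 0.0152) and Vgf (1.05 ± 0.25, 0.0264). Among 17 peptide degrading enzymes Thop1 rose with CFA in WT (1.32 ± 0.17, 0.00309) and Anpep (-2.11 ± 0.29, 0.00453) and Ide (-1.05 ± 0.25, 0.0274) fell. Of 21 other neuropeptide genes, Ucn2 and Edn1 were lower with CFA in WT, and Nts, neurotensin, and Edn1 were lower in iKO under vehicle. With CFA in iKO, 0 of the 103 genes of these 5 lists passed in edgeR, where 8 genes passed in all. Of these 103, 42 had an unadjusted p under 0.05 and DESeq2 called 35.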

How the data were processed

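Whole dorsal root ganglia gave 8 libraries of total RNA, 2 in each of 4 groups taken from the labels. Per the submitters' processing notes, the authors used HISAT2 2.2.1, SAMtools 1.19.2, featureCounts 2.0.6 and DESeq2 (version not given), with the build GRCm39 (mm39). Annotation, strand setting and read length are not given in the sources used here. The deposited values are unscaled counts of reads for each gene symbol, and each file holds 1 library (0 further columns).

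The analysis used edgeR 4.0.16 in R 4.3.3. After filterByExpr, 20235 genes held at least 99.9% of the reads of each library. Library sizes were scaled by TMM, and CPM uses these sizes. A quasi-likelihood model with a mean per group was fitted to all 8 libraries, with two-sided F-tests for 5 comparisons, Benjamini-Hochberg adjustment over all genes within each and a threshold of 0.05. Errors are ± SE for log2 fold changes and ± SD (n = 2) for CPM. The fit was also run on simulated counts of smaller spread than these data, whose common dispersion was 0.0753. That run checks the code and does not measure error rates in these data. Levels between genes were compared per kilobase of GENCODE M21 exon (GRCm38), promoter windows came from RefSeq (GRCm38.p6), and no coordinate was converted.

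The members and lists were chosen with earlier results of these data known. All peptide genes were named in each comparison, with up to 4 genes of a list by smallest p, Ehmt2, and the 5 genes most like Calca, Nppb and Gal by Pearson r of log2 CPM. Alternatives were no filter, RLE or total-count scaling, DESeq2 1.42.0, legacy = FALSE, a replicate block, fits of the compared groups alone, and each library left out. Scaling on pan-neuronal genes was added after seeing the data. The labels number replicates 1 and 2 in each group without saying that the numbers pair libraries.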

Additional observations from a re-analysis of the deposited data

Results flagged for a closer look

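The CFA response differed between the genotypes for Gal and Npy, by the interaction term of the edgeR fit. Positive calls were not particular to them. They were made for 6.19% of all genes, 18 of 28 immediate early, 14 of 18 macrophage and 12 of 15 lymphocyte genes. Negative calls were made for 3.17% of all genes, 0 genes of those 3 lists and 5 of 19 pan-neuronal genes. A shared source was not tested. For Gal the difference was 2.14 on the log2 scale (adjusted p = 0.0149): it was lower with CFA in both WT libraries and level or slightly higher in both iKO libraries. For Npy the difference was 4.92 (adjusted p = 0.0303), on 8 to 317 reads per library. Both rest on the WT vehicle libraries, and without WT vehicle 1 neither passed. The Gal difference was also lost without either iKO vehicle library or iKO CFA 2. The Npy difference was also lost when any single iKO library was left out, and with the replicate block. Groups of 2 libraries were too small for a check of single outlying libraries.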

How the results depend on the processing

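Of 711 log2 fold changes of the 9 genes under alternatives, 620 kept their side of the threshold, 55 lost a call, 36 gained one and 0 called changes turned sign. Peptide genes called, as a range over the fits leaving out single libraries, were 0 to 8 (CFA in WT), 0 to 4 (CFA in iKO), 1 to 4 (iKO against WT, vehicle), 0 to 3 (the same, CFA) and 0 to 6 (interaction). The counts over all genes ranged from 259 to 7474, 0 to 6951, 394 to 8464, 73 to 5819 and 228 to 8303 in that order, against 3406, 8, 3564, 345 and 1895. With an arm reduced to 1 library, that library is assumed to vary like the other groups.

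For CFA in WT, total-count scaling called 5 of the 9, pan-neuronal scaling 5 and the WT libraries alone 2 (754 genes). For CFA in iKO, DESeq2 called 3 (3364 genes) and the iKO libraries alone 5 (8309). All-gene counts there were 510 with no filter, 24 with total-count scaling, 181 with legacy = FALSE and 0 with pan-neuronal scaling. For iKO against WT, the vehicle libraries alone called 8179 genes. Under CFA, DESeq2 called 3 of the 9 (1169 genes), legacy = FALSE 542 genes and the CFA libraries alone 33. For the interaction DESeq2 called 4 of the 9 (3901 genes) and pan-neuronal scaling 4810 genes. The causes were not tested.

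Scaling moved the median log2 fold change of all genes. Total-count scaling put it at -0.35 (CFA in WT), -0.23 (iKO, vehicle), 0.15 (iKO, CFA) and 0.38 (interaction), and pan-neuronal scaling at -0.49, -0.69, 0.40 and 1.09, with 0.69 for CFA in iKO. Calls for CFA in WT were 1643 higher and 1763 lower, with 519 and 3030 under total-count and 124 and 2767 under pan-neuronal scaling. Under vehicle 1676 higher and 1888 lower became 770 and 2752, or 267 and 4492. For the interaction 1253 and 642 became 2258 and 138, or 4783 and 27. Under total-count scaling 20 of 72 CPM values moved by more than the spread of their group.

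With the replicate block, 0 genes were called for CFA in iKO, 207 for iKO against WT under CFA and 1062 for the interaction, where 1 of the 9 genes (Gal) remained and Npy was at an adjusted p of 0.0525. Same-numbered libraries did not deviate together (r between -0.144 and 0.0275 over 6 pairs of groups), so the numbers were not taken as a pairing. Depth limited Npy most, at 8 to 317 reads per library.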
